A study of Mus musculus with 18 samples.

Results

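Cell cycle and proliferation transcripts were examined in immune cells sorted from atherosclerotic mouse vessels. The set holds 39 genes of DNA replication and mitosis, chosen by symbol, and all 39 were among the 23337 gene symbols of the count table. All 39 also passed the filter on low counts, which left 17143 genes for testing. Every sorted subset carried these transcripts. None of the 39 genes differed between subsets past the threshold, an adjusted p under 0.05 in edgeR's quasi-likelihood test with Benjamini-Hochberg adjustment over all tested genes. The widest departures lay in single libraries. In DP replicate 5, 56.4% of the 39 genes stood under 0.1 times the median of the other libraries, against 30.3% of all tested genes. In YFP replicate 5, 30.8% stood under 0.1 times and 28.2% over 3 times that median, against 39.4% and 21.3% of all tested genes.

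A dividing cell copies its DNA in S phase and separates the copies in mitosis. The replication genes are switched on by E2F factors around entry into S phase, and most of the mitotic genes later, through promoter elements bound by the DREAM and B-MYB-FOXM1 complexes, so that their transcripts mark cells in cycle. In atherosclerotic plaques, local division of macrophages is a known source of these cells besides the recruitment of blood monocytes.

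The cells were taken from the aorta and the carotid arteries of Apoe-/- Cx3cr1GFP Cd11cYFP mice of both sexes on the C57BL/6 strain, 7 months old and fed a Western diet for 5 months. All 4 groups share this genotype, age and diet; mice without Apoe, which encodes apolipoprotein E, develop plaques. The labels do not say whether 1 or both copies of Cx3cr1 carried GFP. Live CD45+ cells, which did not take up 7AAD, were sorted by fluorescence: GFP+YFP- (called GFP, n = 6), GFP+YFP+ (DP, n = 4), GFP-YFP+ (YFP, n = 5) and GFP-YFP- (DN, n = 3). GFP reports the Cx3cr1 locus and YFP the promoter of Itgax, which encodes CD11c, so a subset is defined by reporter activity and not by a cell type. Whether each replicate is its own mouse or a pool is not given in the labels, so the p-values refer to the spread among these 18 libraries, part of which may be technical. The question asked of the 39 genes was which subsets hold dividing cells.

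Total counts per library ranged from 289166 in YFP replicate 6 to 27742113 in YFP replicate 1. Levels are given as CPM, counts per 1000000 counts after TMM scaling of the library sizes, and libraries of a subset are listed in the order DP 1, 2, 4 and 5, YFP 1, 3, 4, 5 and 6, and DN 1, 3 and 6. Ptprc, which encodes CD45, stood between 438.7 and 1248 CPM in all 18 libraries. Several libraries went against their sort labels in the reporter genes. Cx3cr1 stood at 9.43 and 0.427 CPM in DP replicates 4 and 5, which were sorted as GFP+, against 80.9 to 164.7 CPM in the GFP subset. In DN replicates 3 and 6 Cx3cr1 stood at 142.3 and 133.8 CPM and Itgax at 332.1 and 297.3 CPM, although both reporters should be absent there. Other sorted libraries showed transcripts of the reporter loci that their gates should lack or were low in those they should have. Cx3cr1 stood at 60.7, 60.01 and 104.5 CPM in YFP replicates 3, 4 and 6, sorted as GFP-, and Itgax at 107.0 to 191.2 CPM in the GFP subset, sorted as YFP-. Itgax was lower than that in libraries sorted as YFP+, at 38.6 and 47.8 CPM in DP replicates 4 and 5 and 89.6 CPM in YFP replicate 6. DN replicate 1 held little macrophage RNA: 7 macrophage markers summed to 571.9 CPM, against 3437 to 48290 CPM in the other libraries, while its T cell and B cell markers summed to 1364 and 1165 CPM. Names such as "DP replicate 5" below mean the library labelled so.

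The 39 genes share promoter features that the choice of genes did not use. Promoter sequences from RefSeq, on the build GRCm38.p6, were found for 32 of the 39 genes and gave 34 promoters; Aurkb, Ccna2, Gins2, Kif20a, Mcm4, Stmn1 and Tpx2 had none in the table. The 250 bases before the start were searched on both strands for 3 elements of cell cycle promoters: the CCAAT box (CCAAT), bound by NF-Y; the CHR element (TTTGAA), bound by DREAM and its relatives; and an E2F motif (TTTCCCGC, TTTGGCGC, TTTCGCGC or TTTGCCGC). A CCAAT box stood in 29 of the 34 promoters (85.3%), against 33.8% of 32851 promoters of all genes. The CHR word was in 26.5% against 16%, always together with a CCAAT box, a pair that 5.55% of all promoters hold. The E2F words were in 11.8% against 1.86%. Among the replication genes 27.3% of promoters held an E2F word and 9.09% a CHR word, while among the mitotic genes the shares were 4.35% and 34.8%. A match is a description of the letters and not evidence of binding.

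Examples are shown to set side by side promoters with different combinations of these words, with CCAAT boxes alone and with none: the 150 bases before the start, 5′ to 3′ on the gene's strand, with matches to the words (either strand) in capitals. Mki67 (chr7:135716380-135716529, minus strand), Top2a (chr11:99024190-99024339, minus), Kif11 (chr19:37376232-37376381, plus) and Ccnb2 (chr9:70421555-70421704, minus) are mitotic genes, and Mcm6 (chr1:128359706-128359855, minus) and Tyms (chr5:30073626-30073775, minus) replication genes.
Mki67: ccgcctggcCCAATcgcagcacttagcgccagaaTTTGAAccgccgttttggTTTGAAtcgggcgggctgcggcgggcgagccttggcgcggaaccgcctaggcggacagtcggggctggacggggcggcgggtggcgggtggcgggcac
Top2a: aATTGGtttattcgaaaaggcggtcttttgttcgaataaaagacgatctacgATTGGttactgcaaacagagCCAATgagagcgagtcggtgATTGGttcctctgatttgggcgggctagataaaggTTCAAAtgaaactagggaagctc
Kif11: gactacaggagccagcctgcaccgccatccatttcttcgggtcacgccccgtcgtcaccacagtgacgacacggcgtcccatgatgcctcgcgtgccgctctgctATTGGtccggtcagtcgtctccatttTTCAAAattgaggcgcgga
Ccnb2: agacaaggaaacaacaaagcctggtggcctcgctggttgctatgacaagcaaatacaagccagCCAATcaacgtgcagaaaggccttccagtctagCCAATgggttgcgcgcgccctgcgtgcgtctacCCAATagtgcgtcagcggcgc
Mcm6: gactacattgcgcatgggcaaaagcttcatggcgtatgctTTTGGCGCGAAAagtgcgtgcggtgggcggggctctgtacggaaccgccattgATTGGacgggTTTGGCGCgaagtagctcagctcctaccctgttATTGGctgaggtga
Tyms: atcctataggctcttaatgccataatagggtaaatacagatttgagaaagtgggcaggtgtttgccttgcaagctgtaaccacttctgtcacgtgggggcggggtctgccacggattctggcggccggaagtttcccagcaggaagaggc
Mki67, Top2a and Kif11 pair a CCAAT box with a CHR word. Ccnb2 holds CCAAT boxes alone in this window. In Mcm6 the first run of capitals joins overlapping E2F words, and Tyms holds none of the words in the bases shown.

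Levels of different genes can be compared only per length of transcript. As medians over the 18 libraries, in CPM per kilobase of exon (GENCODE vM21), the highest were Stmn1 at 39.8 and Pcna at 34.7, followed by Mcm3 at 21.3, Mcm6 at 20.5, Mcm4 at 15.2 and Mcm5 at 14.6. The lowest were Cenpf at 0.412 and Cenpe at 0.993, kinetochore genes with long transcripts. On this scale Mki67 stood at 3.03 and Top2a at 2.97. In 17 libraries all 39 transcripts were detected with at least 1 count, and in YFP replicate 6 it was 37.

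The spread between libraries was measured with some libraries left aside, and was not set against that of all tested genes. Of those left aside, DP replicate 5 and YFP replicate 5 were picked after the data were seen. Leaving aside DP replicate 5, YFP replicate 5 and the shallow YFP replicate 6, the highest of the remaining 15 libraries exceeded the lowest by 1.97-fold (Mcm6) to 18.6-fold (Cenpe), with a median of 3.83-fold over the 39 genes, and by at most 5-fold for 29 of them. The median over the 39 genes, as log2(CPM + 1), was 1.05 in DP replicate 5 and 3.31 to 4.59 in the other 17 libraries. The heat map of levels shows this spread and the libraries left aside.

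**Figure D1:**
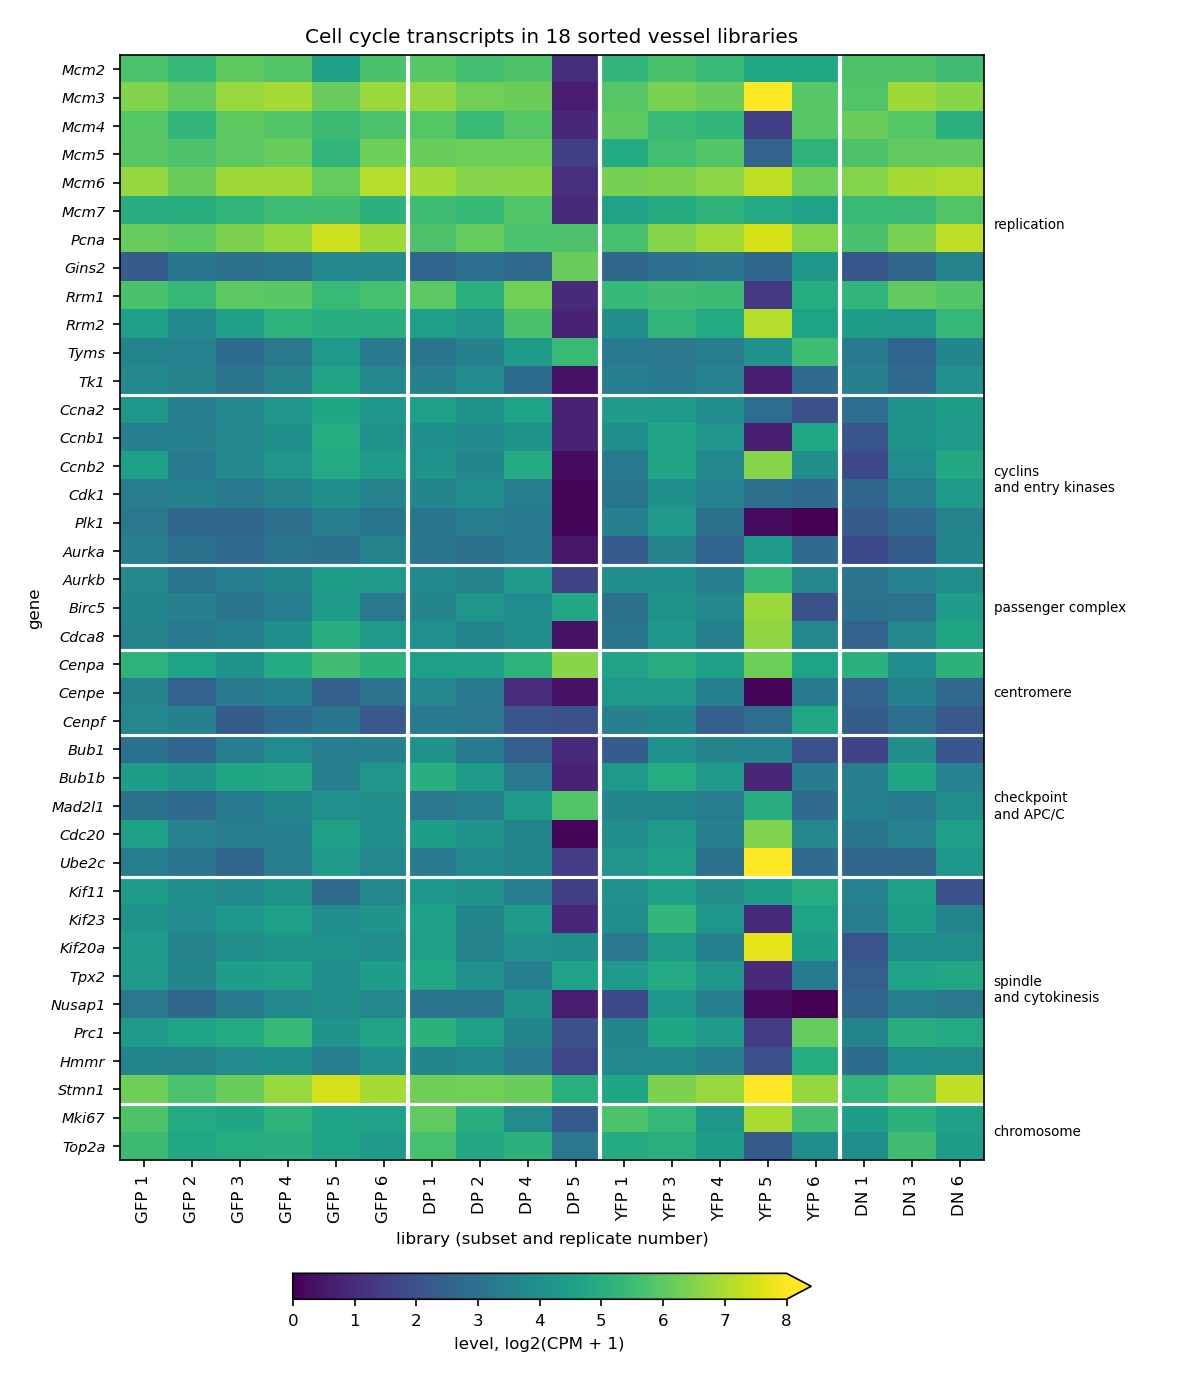
Level of each of the 39 genes, as log2(CPM + 1) by color, in the 18 libraries; genes are grouped by role and libraries by sorted subset. The column of DP replicate 5 is dark for most genes (median 1.05), the column of YFP replicate 5 mixes the brightest and darkest cells, and no block of bright cells sets one subset apart.

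In DP versus GFP, 0 of the 39 genes passed the threshold, against 0.198% of all tested genes, and the smallest adjusted p among them was 0.868 (Gins2, edgeR). Of the 39, 8 had a higher and 31 a lower fitted mean in DP, with a median log2 difference of -0.29, against 0.20 over all tested genes. That split depended on which libraries were fitted and on the method. Without DP replicate 5, 34 were higher and 5 lower, with a median of 0.29. Without GFP replicate 4 it was 19 and 20 (median -0.02). Without YFP replicate 5, a library of neither subset, it was 15 and 24 (median -0.04). With limma voom as the test it was 16 and 23 (median -0.04). With all 18 libraries in edgeR, none of the 39 was higher or lower at an unadjusted p under 0.05, against 6.66% and 0.181% of all genes. None lay above or below GFP in every DP library, as did 0.548% and 0.77% of all genes.

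YFP versus GFP also gave 0 genes past the threshold, against 0% of all tested genes. Fitted means were higher in YFP for 24 and lower for 15, with a median log2 difference of 0.10 against 0.04 over all genes. Ube2c and Kif20a were higher and none was lower at an unadjusted p under 0.05, against 6.59% and 0.432% of all genes. No gene of the set lay above or below GFP in every YFP library (0.251% and 0.583% of all genes).

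YFP versus DP gave 0 of 39, with 0% of all genes. The fitted mean was higher in YFP for 26 and lower for 13, with a median of 0.43 against -0.09. Ube2c, Kif20a and Stmn1 were higher at an unadjusted p under 0.05 (3.02% of all genes) and none was lower (3.72%). The libraries of the 2 subsets overlapped for each of the 39 genes, while 0.367% of all genes lay higher and 0.426% lower in every YFP library.

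The comparisons with DN gave 0 of 39 as well, and 0% of all genes passed in each. GFP was higher than DN for 29 and lower for 10, with a median log2 difference of 0.17 against 0.04 over all genes. Without DN replicate 1 it was higher for 14 and lower for 25. These fits did not pair libraries by number, and the fit with the number as a block is given at the end. In the main fit none of the 39 had an unadjusted p under 0.05 (0.0992% of all genes were higher and 1.25% lower) or libraries apart (0.636% and 0.846%). DP was higher than DN for 14 and lower for 25, with a median of -0.11 against 0.21, and again none had an unadjusted p under 0.05 (2.5% and 0.21%) or libraries apart (0.455% and 0.98%). YFP was higher than DN for 26 and lower for 13, with a median of 0.33 against 0.06, and Ube2c and Kif20a had an unadjusted p under 0.05 (1.92% of all genes were higher and 0.764% lower at that level). Mcm7 lay lower in every YFP library, as did 0.723% of all genes, and none of the 39 lay higher in every one (0.227%). The test for any difference among the 4 subsets gave 0 of 39 against 0.332% of all genes, with its smallest adjusted p of 0.138 for Ube2c; Ube2c and Kif20a had an unadjusted p under 0.05, against 6.96% of all genes. Limma voom also passed 0 of the 39 in every comparison. DESeq2 passed none either, but it gave no adjusted p for 3 of the 39 in DP versus GFP. It gave none for Ube2c over the 4 subsets, so it could not have passed that gene there. The comparisons share libraries and are not independent of each other.

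Without both DP replicate 5 and YFP replicate 5, again 0 of the 39 genes passed in any comparison, and the spread of fitted differences narrowed. All 39 then lay within 1 log2 unit of 0 in 5 of the 6 comparisons, and 37 did in YFP versus DN. The median half-width of the 95% confidence interval fell from a range of 1.44 to 1.78 log2 units over the comparisons to one of 0.84 to 1.03. Changes of up to about 2-fold in single genes are thus inside the typical interval even then, and the data do not show that the subsets are alike. Median differences changed sign in 4 of the comparisons, to 0.14 (DP versus GFP), -0.08 (YFP versus GFP), -0.18 (YFP versus DP) and 0.26 (DP versus DN), which the plot of fitted differences shows. In sorted bulk samples, fewer dividing cells and less of a transcript per cell cannot be told apart.

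**Figure D2:**
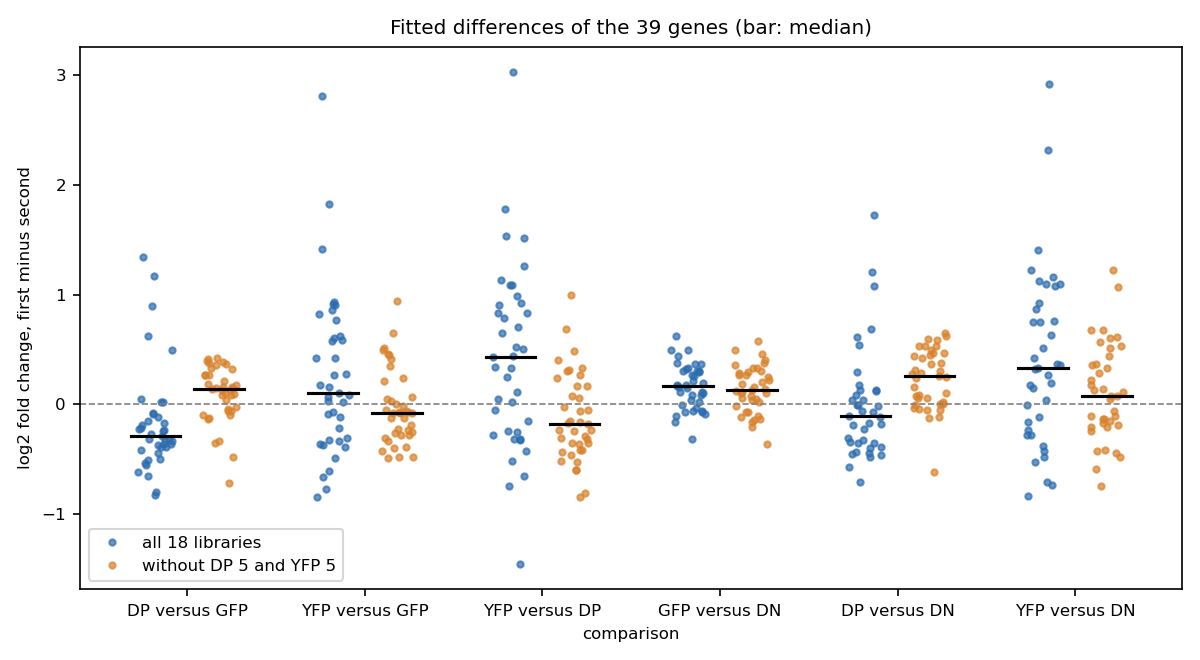
Fitted log2 fold change of each of the 39 genes (points) in the 6 comparisons, first subset minus second, with all 18 libraries (blue) and without DP replicate 5 and YFP replicate 5 (orange); black bars are medians. The points near 3 in the comparisons of YFP with GFP, DP and DN are Ube2c, and they fall to between 0.27 and 0.57 without the 2 libraries.

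Among the replication genes, Mcm2 to Mcm7 encode the hexameric helicase that unwinds DNA at the fork. Mcm5 stood between 37.5 and 74.3 CPM in GFP (median 60.8) and at 69.1, 73.7, 74.0 and 1.81 CPM in DP. It stood at 29.6, 47.1, 57.3, 4.69 and 35.8 CPM in YFP and at 53.2, 66.6 and 66.5 CPM in DN. DP replicate 5 and YFP replicate 5 were the lowest of the 18, and the other libraries lay between 29.6 and 74.3 CPM. Without those 2 libraries the YFP minus DP difference of Mcm5 was -0.85, with a 95% interval from -1.44 to -0.25 and an adjusted p of 1 (edgeR). Mcm7 was the only one of the 39 genes whose libraries did not overlap in any comparison: it stood at 23.4, 29.5, 36.0, 28.5 and 23.9 CPM in YFP, below the 41.5, 42.3 and 55.5 CPM of DN. Over all tested genes 0.723% lay lower in every YFP than in every DN library. Its fitted difference of -0.71 ± 0.70 (log2, SE) had an adjusted p of 1 (edgeR). In the fit without the 2 libraries it was -0.75, with a 95% interval from -1.32 to -0.17 and an adjusted p of 1, and Mcm7 shares 557 exon bases with Cops6, Ap4m1 and microRNA genes. Without the 2 libraries the 95% intervals of 2 of the 39 genes excluded 0 in YFP versus DP: Mcm5 and Mcm7 (-0.81, from -1.38 to -0.23). In YFP versus DN those of 2 did, Mcm7 and Cenpf (1.22, from 0.0055 to 2.44), and in each other comparison 0. None of these genes passed the threshold, and the share of all tested genes with such intervals is not given here. For the 6 helicase genes together the median difference from GFP was -0.37 in YFP (1 higher, 5 lower) and -0.30 in DP (0 and 6), and 0 of 6 passed in either. Without DP replicate 5 and YFP replicate 5 the DP value turned to 0.19 (5 higher, 1 lower), and that of YFP was -0.33 (0 and 6).

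Pcna encodes the sliding clamp that holds DNA polymerase on its template. It stood between 63.8 and 166.6 CPM in GFP (median 95) and at 54.0, 67.6, 52.5 and 53.2 CPM in DP. It stood at 50.4, 92.5, 117.8, 182.1 and 89.6 CPM in YFP and at 50.7, 82.5 and 145.9 CPM in DN. In DP the replicate 5 library lay among the others, and the DP minus GFP difference was -0.83 ± 0.48 (log2, SE; adjusted p = 0.925). DP and GFP overlapped only in the 67.6 CPM of DP replicate 2 against the 63.8 CPM of the lowest GFP library.

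Gins2 is a subunit of the GINS complex, which completes the active helicase. Its level was 3.98 to 12.5 CPM in GFP (median 7.67), and 4.99, 6.51, 5.65 and 68.9 CPM in DP. Levels of 5.36, 6.56, 7.31, 5.29 and 17.9 CPM followed in YFP and of 3.42, 5.2 and 10.9 CPM in DN. The one high library, DP replicate 5, was the same that was lowest for the helicase genes. The DP minus GFP difference of 1.34 ± 0.74 (adjusted p = 0.868) turned to -0.47 without it and YFP replicate 5. Gins2 shares 2758 exon bases with Gse1 on the other strand, and the strand setting of the counting is not given in the sources used here; Gse1 itself stood at 16.1 CPM in DP replicate 5 and 10.1 to 35.4 CPM elsewhere.

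Nucleotide supply is represented by Rrm1 and Rrm2, the subunits of ribonucleotide reductase, and by Tyms and Tk1, which make thymidylate. Rrm2 stood between 13 and 35.1 CPM in GFP (median 27.1) and at 21.7, 17.2, 51.3 and 0.747 CPM in DP. In YFP Rrm2 was at 14.6, 37.0, 28.8, 135.8 and 23.9 CPM and in DN at 21.6, 18.6 and 39.4 CPM. Rrm1, its partner subunit, did not follow it in YFP replicate 5, where it stood at 1.5 CPM against 29.9 to 45.6 CPM in the other YFP libraries.

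Tyms was measured at 6.10 to 18.7 CPM in GFP (median 9.76) and at 7.57, 10.5, 20.2 and 40.9 CPM in DP. It was at 8.86, 8.03, 9.32, 16.4 and 44.8 CPM in YFP, the last resting on 15 counts, and at 8.90, 5.13 and 11.7 CPM in DN. Tk1, the salvage enzyme of the same product, lay at 7.39 to 24.4 CPM in GFP (median 11.5) and at 10.2, 13.5, 6.07 and 0.320 CPM in DP. Its YFP levels were 9.69, 8.94, 10.6, 0.598 and 5.97 CPM and its DN levels 9.76, 6.01 and 15.6 CPM. In DP replicate 5 Tyms was thus the highest of the DP libraries and Tk1 the lowest. With all 18 libraries, none of the 12 replication genes had an unadjusted p under 0.05 in any comparison.

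Cyclins and the kinases they drive set the entry into mitosis. Ccnb1 encodes cyclin B1, the partner of Cdk1 at mitotic entry. It stood between 10.1 and 29.8 CPM in GFP (median 13.6) and at 15.1, 13.3, 16.7 and 0.747 CPM in DP. It stood at 14.9, 24.4, 16.9, 0.598 and 26.9 CPM in YFP, where the value of 0.598 rests on 6 counts, and at 3.42, 16.7 and 19.2 CPM in DN. Cdk1, the kinase itself, lay between 8.86 and 15.2 CPM in GFP (median 10.7) and at 11.4, 14.2, 9.26 and 0.107 CPM in DP, the last from 1 count. For Cdk1 the YFP levels were 7.61, 15.2, 10.8, 6.78 and 5.97 CPM and the DN levels 5.2, 9.97 and 19.4 CPM. Outside DP replicate 5 and YFP replicate 5 the subsets overlapped for both genes. The other 4 genes of this role are Ccna2 (cyclin A2), Ccnb2 (cyclin B2), Plk1 and Aurka (mitotic kinases); all 6 stood under 0.1 times of the median of the other libraries in DP replicate 5, and their DP minus GFP median was -0.35 (0 higher, 6 lower). Without that library and YFP replicate 5 it turned to 0.14 (6 higher, 0 lower). In YFP replicate 5 Ccnb2 was at 92.7 CPM, its highest level, and Ccnb1 was at its lowest.

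Aurkb, Birc5 and Cdca8 encode the kinase and 2 scaffold subunits of the chromosomal passenger complex, which corrects the attachment of chromosomes to the spindle. Birc5, which encodes survivin, stood between 7.51 and 20.5 CPM in GFP (median 10.04) and at 11.6, 17.2, 13.7 and 27.5 CPM in DP. It stood at 6.73, 16.2, 12.3, 109.7 and 2.99 CPM in YFP and at 7.01, 7.18 and 20.03 CPM in DN. A single YFP library was high. All 3 genes were over 3 times the median of the other libraries there, with Cdca8 at 100.4 and Aurkb at 39.1 CPM. The YFP minus GFP difference of Birc5 was 1.42 ± 0.70 (adjusted p = 0.723) and turned to -0.12 without the 2 libraries.

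Cenpa encodes the histone that marks the centromere, and Cenpe and Cenpf encode kinetochore proteins. Cenpa stood between 16.3 and 45.9 CPM in GFP (median 31.9) and at 21.8, 22.9, 34.8 and 94.3 CPM in DP. It stood at 23.6, 30.4, 21.9, 73.7 and 23.9 CPM in YFP and at 33.0, 13.7 and 34.4 CPM in DN. Its 2 highest libraries were DP replicate 5 and YFP replicate 5, in both of which Cenpe was near 0 (0.320 and 0.0997 CPM). Cenpf lay at 3.71 to 12.1 CPM in GFP (median 6.84) and at 8.98, 8.14, 3.41 and 2.99 CPM in DP. Levels of Cenpf were 10.2, 11.8, 4.47, 6.18 and 26.9 CPM in YFP, the last from 9 counts, and 4.14, 6.52 and 3.67 CPM in DN. Cenpf had the smallest p of the 39 genes in GFP versus DN, with a difference of 0.62 ± 0.76 and an adjusted p of 1.

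Bub1, Bub1b and Mad2l1 belong to the spindle checkpoint, which holds back the anaphase-promoting complex, and Cdc20 and Ube2c encode that complex's activator and its ubiquitin-conjugating enzyme. Ube2c stood between 5.27 and 18.7 CPM in GFP (median 9.37) and at 8.98, 13.2, 11.5 and 1.81 CPM in DP. It stood at 16.9, 23.0, 7.12, 306.0 and 5.97 CPM in YFP and at 5.18, 5.28 and 18.4 CPM in DN. YFP replicate 5 alone set it apart, with 3069 counts. The YFP minus GFP difference was 2.81 ± 0.84 (log2, SE; 95% interval 1.08 to 4.53; adjusted p = 0.327), and without the 2 libraries it was 0.46 with an interval from -0.50 to 1.41. Ube2c shares 592 exon bases with Tnnc2, which had 0 counts in YFP replicate 5.

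Cdc20 lay between 9.25 and 23.1 CPM in GFP (median 13) and at 21.4, 15.9, 11.3 and 0.107 CPM in DP. Its YFP levels were 14.4, 20.3, 10.1, 87.0 and 11.9 CPM and its DN levels 7.91, 10.7 and 22.4 CPM. As with Ube2c, the same pair of libraries held the lowest and the highest value. Mad2l1 was at 6.01 to 15.4 CPM in GFP (median 10.2) and at 7.99, 9.60, 20.6 and 56.4 CPM in DP. Mad2l1 stood at 11.5, 11.2, 9.38, 30.6 and 5.97 CPM in YFP and at 10.3, 9.09 and 14.1 CPM in DN. Its DP minus GFP difference was 1.17 ± 0.64 (adjusted p = 0.877), and 0.38 without the 2 libraries. Bub1 was measured at 5.05 to 14 CPM in GFP (median 9.78) and at 16.2, 8.71, 4.32 and 0.960 CPM in DP. The Bub1 levels were 4.06, 16.1, 11.3, 11.3 and 2.99 CPM in YFP and 2.08, 14.4 and 3.52 CPM in DN. The ranges of Bub1 overlapped between all subsets.

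Genes of the spindle and of cytokinesis include the motors Kif11, Kif23 and Kif20a, the microtubule-binding proteins Tpx2, Nusap1, Prc1 and Hmmr, and Stmn1, a microtubule destabilizer. Kif11, which pushes the spindle poles apart, lay between 6.04 and 19.9 CPM in GFP (median 13.7) and at 18.1, 16, 9.80 and 1.81 CPM in DP. In YFP it was at 15.5, 22.9, 14.4, 20.7 and 29.9 CPM and in DN at 10.6, 22.5 and 2.94 CPM. Here YFP replicate 5 lay among the others of its subset. Kif20a, a kinesin of cytokinesis, lay between 10.9 and 18.5 CPM in GFP (median 15.4) and at 21.7, 10.8, 15.5 and 14.7 CPM in DP. Its YFP levels were 8.18, 20.3, 10.5, 207.1 and 20.9 CPM, and its DN levels 3.19, 14.9 and 14.4 CPM. The YFP minus GFP difference of 1.82 ± 0.71 (adjusted p = 0.596) fell to -0.13 without the 2 libraries. Kif20a shares 1271 exon bases with Cdc23, which stood at 2.39 CPM in YFP replicate 5 and at 23.5 to 44.8 CPM in the other YFP libraries.

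Stmn1 stood between 51.7 and 179.8 CPM in GFP (median 91.9) and at 76, 77, 71.3 and 32.9 CPM in DP. It stood at 25.3, 83.9, 107.2, 593.5 and 104.5 CPM in YFP and at 37.1, 59.5 and 149.8 CPM in DN. The YFP minus DP difference was 1.51 ± 0.69 (adjusted p = 0.689), and -0.05 without the 2 libraries. The lowest and the highest of all 18 libraries were both YFP libraries, replicates 1 and 5. Of the other members of this role, Tpx2, Nusap1, Prc1 and Kif23 were under 0.1 times of the median of the other libraries in YFP replicate 5.

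Mki67, which encodes the Ki-67 antigen that coats mitotic chromosomes, and Top2a, the topoisomerase that untangles them, are the usual markers of cycling cells. Mki67 stood between 23.5 and 54.8 CPM in GFP (median 27.3) and at 65.2, 32.1, 13.4 and 3.84 CPM in DP. It stood at 52.3, 38.9, 17.6, 126.8 and 47.8 CPM in YFP and at 21.2, 34.0 and 23.0 CPM in DN. The mean was highest in YFP, at 56.7 ± 41.4 CPM (SD, n = 5), against 32.2 ± 12.0 in GFP (n = 6), 28.6 ± 27.1 for the DP libraries (n = 4) and 26.1 ± 6.93 for those of DN (n = 3). Top2a lay between 19.4 and 43.8 CPM in GFP (median 28) and at 49.6, 27.5, 33.7 and 8.11 CPM in DP. For Top2a the YFP libraries gave 29.6, 32.9, 21.5, 3.99 and 14.9 CPM and the DN libraries 14.3, 46 and 21.1 CPM. In YFP replicate 5 the markers parted, Mki67 being at its highest and Top2a at its lowest of the 18 libraries. Neither passed the threshold in any comparison: the YFP minus GFP difference was 0.82 ± 0.60 for Mki67 (adjusted p = 0.937) and -0.49 ± 0.59 for Top2a (adjusted p = 0.977), and without the 2 libraries 0.24 and -0.19.

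**Figure D3:**
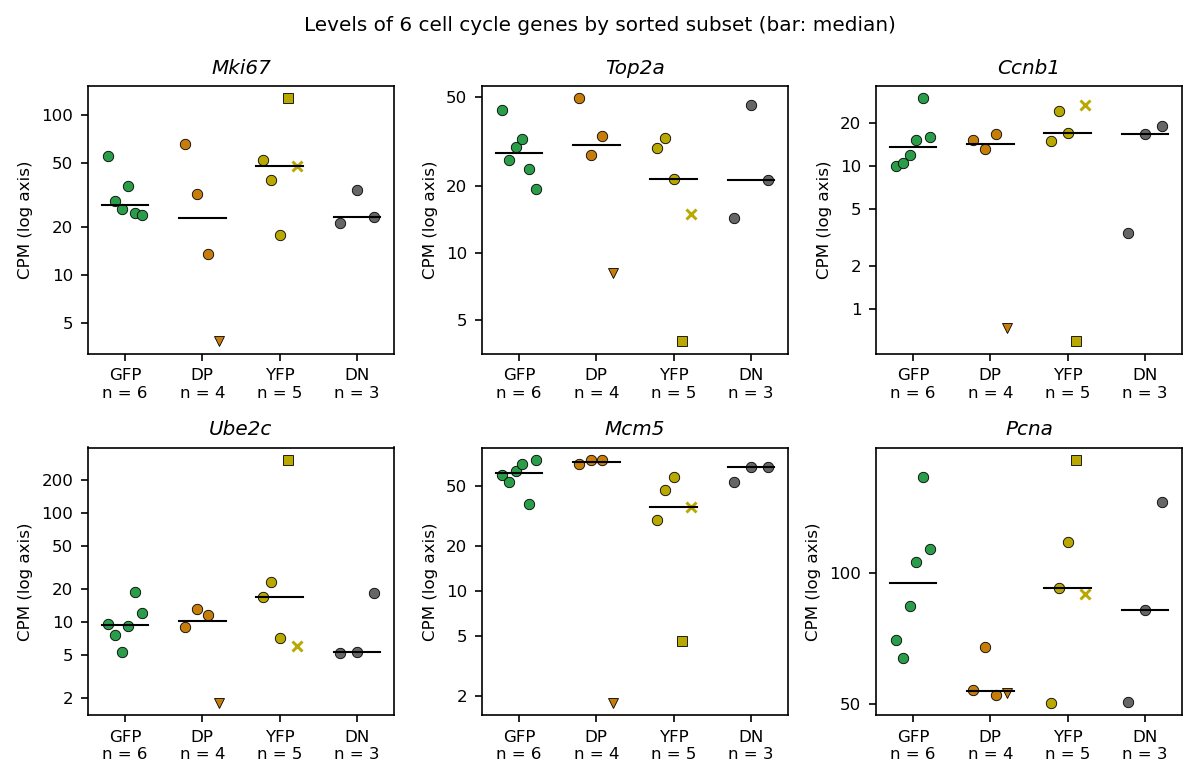
CPM on a log axis of 6 of the genes by sorted subset, 1 symbol per library; bars are medians, the triangle is DP replicate 5, the square YFP replicate 5 and the cross YFP replicate 6. The triangle is the lowest value for Mki67, Ube2c and Mcm5, while the square is the highest value for Mki67 and Ube2c (306.0 CPM) and the lowest for Top2a and Ccnb1.

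The order of the subsets differed from gene to gene. The highest subset median belonged to GFP for 9 genes, to DP for 9, to YFP for 13 and to DN for 8, against 22.3%, 36.7%, 20.4% and 20.7% of all tested genes. No subset led throughout, and these orders were not tested.

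DP replicate 5 was the lowest of the 18 libraries for 24 of the 39 genes. In it 22 genes (56.4%) stood under 0.1 times of the median of the other 17 libraries, as did 30.3% of all tested genes. These were Mcm2 to Mcm7, Rrm1, Rrm2 and Tk1, all 6 cyclins and entry kinases, and Cdca8, Cenpe, Bub1, Bub1b, Cdc20, Kif23 and Nusap1. Gins2, Tyms, Cenpa and Mad2l1 (10.3%) stood over 3 times that median, as did 24.3% of all genes, and 13 lay between. The library held 17601365 counts, of which 4247 fell on the 39 genes, and 7 of the genes had 3 counts or fewer. Markers of other cells were high in the same library. Its 8 neutrophil markers, all detected, summed to 17190 CPM (8.23 to 1407 CPM in the other 17). The 5 of mast cells and basophils summed to 4024 CPM (at most 137.3 elsewhere), with Ms4a2 at 0 counts. The 7 of platelets and erythroid cells summed to 4093 CPM (at most 1416 elsewhere), with Hba-a1 at 0 counts. Smooth muscle markers summed to 2758 CPM (at most 1947 elsewhere). Fibroblast markers summed to 5357 CPM, against 227.3 to 1019 CPM in GFP. They were higher still in DP replicate 4 (11320 CPM) and YFP replicate 1 (10400 CPM). Macrophage markers summed to 35150 CPM in DP replicate 5. The 6 markers of the NK and ILC2 list summed to 3.09 CPM, with Ncr1, Klrb1c and Gzma at 0 and 3 above 3 counts. In YFP replicate 6, 4 of these 6 were at 0. The part of all these markers in the result was not tested.

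YFP replicate 5 was the highest library for 14 genes and the lowest for 5. In it 12 of the 39 genes (30.8%) stood under 0.1 times of the median of the other 17 libraries, against 39.4% of all tested genes, and 11 (28.2%) over 3 times that median, against 21.3%. Partners in 1 complex lay on both sides: Mcm3 at 294.0 CPM with Mcm4 at 1.79 CPM, and Rrm2 at 135.8 with Rrm1 at 1.5 CPM. So did the alternative B-type cyclins, with Ccnb2 at 92.7 and Ccnb1 at 0.598 CPM. Its TMM factor was 0.445, the lowest of the 18 libraries, and that of DP replicate 5 was 0.533, while the others lay between 0.862 and 1.75. The median over the 39 genes in YFP replicate 5, as log2(CPM + 1), was 4.12 with TMM scaling, 3.05 with total counts and 4.48 with DESeq2-style size factors. Foamy macrophage markers summed to 78220 CPM in it (440.9 to 38840 CPM elsewhere). No other library but the shallow YFP replicate 6 had any of the 39 genes under 0.1 times or over 3 times the median of the others. The part of these markers in the result was not tested.

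**Figure D4:**
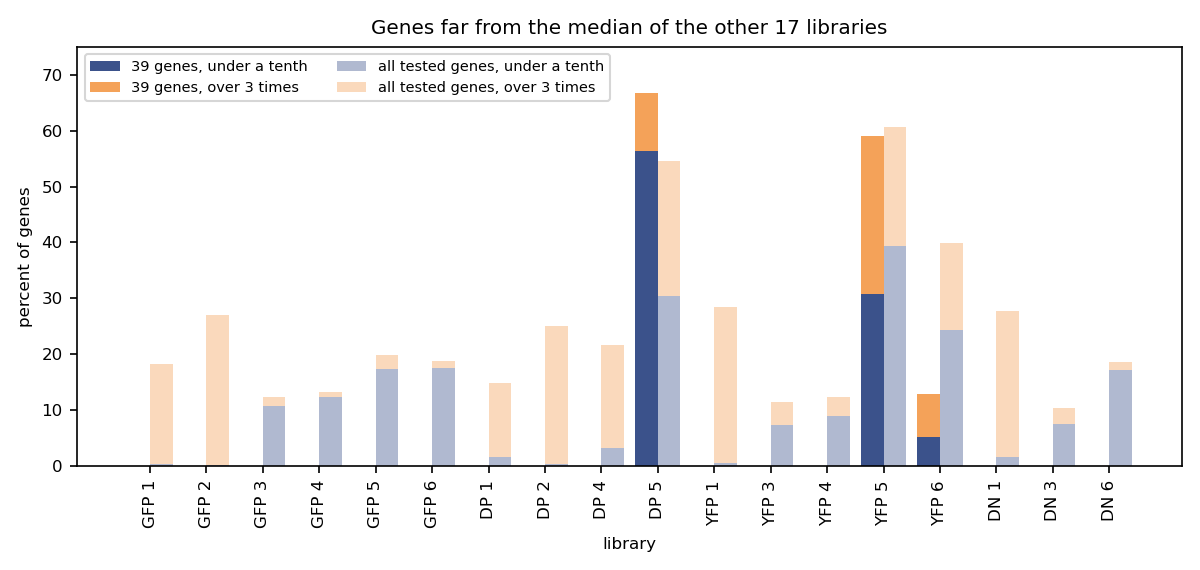
Percent of the 39 genes (dark bars) and of all tested genes (pale bars) that stood under 0.1 times (blue) or over 3 times (orange) the median of the other 17 libraries, by library. For the 39 genes bars appear only in DP replicate 5 (56.4% and 10.3%), YFP replicate 5 (30.8% and 28.2%) and YFP replicate 6 (5.13% and 7.69%), while all tested genes depart in every library.

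The 12 replication genes and the 27 genes of the mitotic roles were also summarized separately in each library, by the median of log2(CPM + 1). The difference of the medians, replication minus mitotic, depends on the genes' lengths for its size. At low levels, as in DP replicate 5, it also depends on the 1 added to CPM. It was 2.02 ± 0.65 in DN (SD, n = 3; range 1.41 to 2.71), 1.79 ± 0.35 in GFP (n = 6; 1.25 to 2.30), 1.24 ± 0.35 in YFP (n = 5; 0.82 to 1.74) and 1.19 ± 1.13 in DP (n = 4; -0.48 to 1.96). The subsets overlapped. The highest value, 2.71, was that of DN replicate 1. With TMM scaling its mitotic genes summed to 242.4 CPM, the lowest of the 18 libraries, and its replication genes to 497.6 CPM. Such sums depend on the scaling. The TMM factor of DN replicate 1 was 1.75, and its median over the 39 genes, as log2(CPM + 1), was 3.31 with TMM and 4.05 with total counts. It is also the library with the high T cell and B cell markers given above, and their part in the result was not tested.

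**Figure D5:**
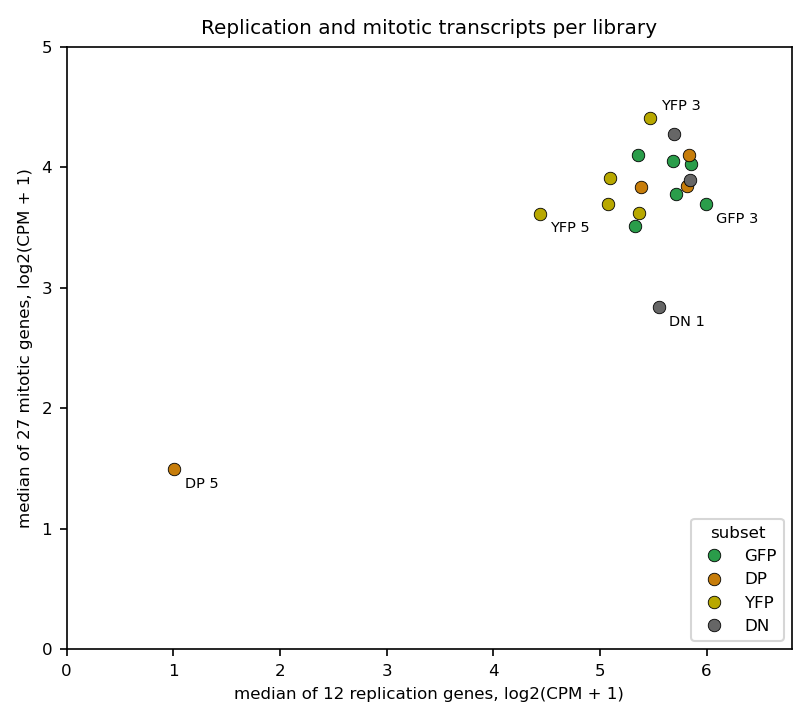
Median level, as log2(CPM + 1), of the 12 replication genes (x axis) and the 27 mitotic genes (y axis), 1 point per library, colored by sorted subset. Points of all subsets mix at 4.43 to 5.99 on the x axis, DN replicate 1 lies low on the y axis at 2.84, and DP replicate 5 stands alone at 1.01 and 1.49.

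Libraries numbered 1 and 2 had 19245 to 21972 genes detected, and those numbered 3 to 6 had 13150 to 18961. Thinned to 289166 counts, the ranges were 11568 to 13740 and 6845 to 13150. The part of this difference in the results was not tested, and the main fit did not use the number. When only the libraries numbered 1 and 2 were fitted, DN and YFP were represented by 1 library each, replicate 1. It was assumed to vary like the GFP and DP pairs. Such a fit compares these libraries and not the subsets. DN replicate 1 is the library with little macrophage RNA and high T cell and B cell markers, and the part of these in the values was not tested. Against it 9 of the 39 genes (23.1%) were higher in DP past the threshold (Ccna2, Ccnb1, Ccnb2, Cdca8, Bub1, Bub1b, Kif20a, Tpx2 and Prc1), as 14.1% of all tested genes passed in either direction. In GFP 4 were higher (10.3%), a share near the 12.5% of all tested genes. With the libraries numbered 3 to 6, 0 of the 39 passed in any comparison.

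The wider cell cycle programme was measured with 108 further genes in 4 lists, and none passed the threshold in any comparison or over the 4 subsets, with a smallest adjusted p of 0.154 (edgeR) over the 4 subsets. Of 35 other replication genes, 12 were higher and 23 lower in DP than in GFP (median -0.19), and 17 and 18 in YFP (median -0.15). Of 42 other mitotic genes, 11 were higher and 31 lower in DP (median -0.28), and 18 and 24 in YFP (median -0.08). In DP replicate 5 alone, 25 of the 35 and 23 of the 42 stood under 0.1 times the median of the other libraries. Without it and YFP replicate 5, the DP counts were 20 higher and 15 lower (median 0.02) for replication and 22 and 20 (median 0.03) for mitosis. Of 17 regulators of the step from G1 to S phase, 12 were higher and 5 lower in DP (median 0.13), and 8 and 9 in YFP (median -0.09). The genes with the smallest p in these lists departed in the same libraries. In YFP replicate 5, Gmnn (geminin, which blocks a further round of replication) stood at 146.8 CPM, Rfc4 (clamp loader) at 72.5, Skp2 (a ubiquitin ligase subunit that targets p27) at 103.7, Kif2c (a kinesin that takes microtubules apart) at 194.3 and Ckap2 (a spindle protein) at 145.0 CPM. In all other libraries these 5 stood between 0 and 32.8 CPM. Ccnd3, cyclin D3, was highest in DP replicate 5 at 430.1 CPM, against 35.8 to 164.1 CPM elsewhere.

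Genes that restrain the cycle spanned a wide range of levels. Of 14 inhibitor and quiescence genes, 8 were higher and 6 lower in DP than in GFP (median 0.02), 3 and 11 in YFP (median -0.22), and 0 passed in any comparison. Without DP replicate 5 and YFP replicate 5 the DP split was 5 higher and 9 lower (median -0.08). Cdkn1a, which encodes the Cdk inhibitor p21, stood between 419.0 and 753.7 CPM in GFP and at 536.3, 571.9, 247.7 and 1189 CPM in DP. Its YFP levels were 164.7, 463.0, 559.3, 683.4 and 367.2 CPM and its DN levels 109.3, 461.4 and 750.2 CPM. Unlike most of the 39 genes, it was highest in DP replicate 5. Btg1, an antiproliferative gene of quiescent cells, stood there at 5381 CPM, against 568.0 to 1843 CPM in the other 17 libraries, and Cdkn2a, which encodes p16 and Arf, at 13.2 CPM, against at most 0.588 CPM. Btg2, of the same family as Btg1, lay between 306.1 and 1036 CPM in the 18 libraries, with DP replicate 5 at 1007 CPM. Trp53 (p53) stood between 28.3 and 210.1 CPM, Rb1 (the retinoblastoma protein) between 23.9 and 93.2 CPM, and Cdkn2d (p19, an inhibitor of Cdk4 and Cdk6) between 21.8 and 155.4 CPM. Rbl2 (p130, the pocket protein of DREAM) ranged from 0.698 CPM in YFP replicate 5 to 123.1 CPM in DN replicate 1. Ccng1 and Ccng2, which encode cyclins G, were also lowest in YFP replicate 5, at 5.39 and 1.20 CPM, and Cdkn1c (p57) was highest in DP replicate 5, at 28.3 CPM. The Cdk inhibitors Cdkn1b (p27), Cdkn2b (p15) and Cdkn2c (p18) stayed low in all 18 libraries, at 1.10 to 7.999 CPM, 0 to 4.46 CPM and 0.299 to 12.6 CPM.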

How the data were processed

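RNA of sorted cells was amplified with the SMART-seq v4 kit in 11 cycles, made into libraries with Nextera XT and sequenced on an Illumina HiSeq4000, per the labels' protocols. TopHat 1.4.1, SAMtools, HTSeq 0.7.1 and the build mm10 are named in the submitters' processing notes; the annotation and strand setting are not given in the sources used here. The counts, as deposited by the authors, are whole numbers of reads per gene in 18 libraries without normalization, and were used as they stood. Reads carry no molecular identifiers, so intervals cover counting and library spread only. Columns were matched to samples by name. Within a subset, every 2 libraries differed by more than sampling noise (the lowest chi-square per degree of freedom was 16.4).

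The test was that of edgeR 4.0.16 under R 4.3.3 (filterByExpr by subset, TMM, robust quasi-likelihood fit with 1 mean per subset over all 18 libraries; common dispersion 0.890), with Benjamini-Hochberg adjustment over 17143 genes and a threshold of 0.05. Standard errors were derived from each F statistic and its fold change. The 39 genes and all lists were chosen with earlier results of these data known. Values per library are given for 15 genes chosen to represent the roles, for the 3 genes with the smallest p in each comparison, for the 2 of each further cell cycle list with the smallest p over the 4 subsets, and for inhibitors with a mean of at least 20 CPM; Mcm7 and a few other values were added after they were seen. The fit was tested on simulated counts of YFP versus GFP with 16388 genes: of 50 genes changed by a log2 fold of 1, 2, 3 and 4, it called 0, 5, 20 and 42, with 3 false calls.

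The alternatives were other size factors, DESeq2 1.42.0, limma 3.58.1 voom, no filter, only the subsets compared, the replicate number as a block, each library left out, doubted libraries left out, and number sets. The fit without DP replicate 5 and YFP replicate 5 was chosen after seeing the data. Same-numbered libraries of GFP and DN deviated together from their subset means (correlations of 0.663, 0.53 and 0.626 over genes). The number was therefore taken to pair these 2 subsets. For YFP with GFP the correlations were 0.538, 0.425, 0.464 and 0.293 for numbers 1, 3, 4 and 5, and -0.00644 for number 6. For YFP with DN they were 0.55 and 0.393 for numbers 1 and 3, and -0.064 for number 6. The same-numbered library was the best correlated one of GFP for YFP replicates 1, 3, 4 and 5, and of DN for YFP replicates 1 and 3. For YFP replicate 6 it was not, in either subset. Pairing of YFP libraries by number is thus not excluded. The p-values and intervals of YFP from the unpaired fit carry this limit. In each comparison with DP at least 1 pair was at or under 0.1. The main fit did not use the number. Of the 39 genes, 13 share exon bases with another gene, whose reads may be mixed.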

Additional observations from a re-analysis of the deposited data

Results flagged for a closer look

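Within subsets of 4 to 6 libraries, the highest or lowest library was compared with its nearest neighbour for 15 of the genes and for the median over the 39, in 48 checks. Of these, 10 had a gap that Dixon's 95% limit would give in about 1 of 20 groups by chance. As log2(CPM + 1), DP replicate 5 was far below the other DP libraries in Ccnb1 (0.805), Cdk1 (0.146), Stmn1 (5.08), Mcm5 (1.49) and the median over the 39 genes (1.05). YFP replicate 5 was far below the other YFP libraries in Ccnb1 (0.677), Tk1 (0.677) and Mcm5 (2.51), and far above them in Cenpa (6.22). DP replicate 2 was above the other DP libraries in Pcna (6.10), which differ from each other by little.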

How the results depend on the processing

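None of the 39 genes passed the threshold in any pairwise comparison with other size factors, DESeq2 (which gave no adjusted p for 3 of them), limma voom, no filter, only the 2 subsets, the replicate block, any single library left out, the sets of libraries in doubt left out, or numbers 3 to 6 alone. With numbers 1 and 2 alone some of the 39 genes passed in YFP versus DP, in each comparison with DN and over the 4 subsets. Their share was below that of all tested genes in YFP versus DP and GFP versus DN. It was above that of all tested genes in DP versus DN, YFP versus DN and over the 4 subsets. YFP and DN then hold 1 library each, so these calls do not compare the subsets. Over the 4 subsets 1 gene, Ube2c, passed without YFP replicate 1 (adjusted p = 0.0348, edgeR), 3 (0.0423) or 4 (0.0334). With any other single library left out, 0 of the 39 passed. The fits that passed Ube2c kept YFP replicate 5, where it stood at 306.0 CPM. The shares of all tested genes that passed in them are not given here.

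The background counts over all genes moved more: in DP versus GFP 34 genes passed with edgeR, 92 with the other size factors, 62 with no filter, 330 with DESeq2, 3445 with voom and 0 without DP replicate 5, and over the 4 subsets 57, 135, 132, 423, 1116 and 0. In the other pairwise comparisons edgeR passed 0 genes, while in YFP versus GFP voom passed 462 and edgeR with no filter 9, and DESeq2 passed 182 (YFP versus GFP), 115 (YFP versus DP), 0 (GFP versus DN), 26 (DP versus DN) and 11 (YFP versus DN).

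The median log2 difference of the 39 genes in DP versus DN was 0.765 without DP replicates 4 and 5 and DN replicates 3 and 6 (the 4 libraries below), 1.04 also without YFP replicate 6, and 0.878 with numbers 1 and 2 alone. In each of these fits DN holds only replicate 1, the library with little macrophage RNA, and DP holds replicates 1 and 2. They compare these libraries and not the subsets. Leaving out each library moved the medians from -0.49 to 0.29 (DP versus GFP), -0.02 to 0.40 (YFP versus GFP), 0.00448 to 0.67 (YFP versus DP), -0.17 to 0.41 (GFP versus DN), -0.42 to 0.30 (DP versus DN) and 0.09 to 0.54 (YFP versus DN). DESeq2-style size factors moved the median of all tested genes from 0.20 to 0.38 in DP versus GFP and from 0.04 to 0.20 in YFP versus GFP, and that of the 39 genes in DP versus DN from -0.11 to 0.01. With the replicate block, which the paired GFP and DN libraries call for, the GFP minus DN median was 0.43 (32 higher, 7 lower); the block changed no call of the 39 genes in any comparison, and over all genes it left 0 of the 34 calls in DP versus GFP and 0 of the 57 over the 4 subsets.

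Directions of single genes turned as follows, and the cause was not tested beyond which libraries were left out. In DP versus GFP, Gins2 was -0.40 with voom, -0.31 without DP replicate 5, -0.26 without the 4 libraries, -0.57 also without YFP replicate 6 and -0.47 without DP replicate 5 and YFP replicate 5; Mad2l1 was -0.088 with voom and -0.27 without the 4 libraries and YFP replicate 6. In YFP versus GFP, Kif20a was -0.10 with voom, -0.05 without YFP replicate 5, -0.69 with numbers 1 and 2 alone and -0.13 without the pair, and Birc5 -0.13, -0.54 and -0.12 in the last 3 of these. In YFP versus DP, Kif20a was -0.089 with voom and -0.45, -0.90 and -0.29 in those 3, and Stmn1 -0.0037, -1.49 and -0.0502. In DP versus DN, Gins2 was -0.01 without DP replicate 5 and -0.12 without the pair, Tyms -0.25 without the 4 libraries and -0.13 with numbers 1 and 2, and Mad2l1 -0.084 with voom, -0.50 without the 4, -0.22 also without YFP replicate 6 and -0.39 with numbers 1 and 2. In YFP versus DN, Birc5 was -0.19 without YFP replicate 5, -0.10 with numbers 1 and 2 and -0.14 without the pair. The same differences reached, with another library or set left out, 2.15 (Gins2) and 1.88 (Mad2l1) in DP versus GFP, 2.57 (Kif20a) and 2.12 (Birc5) in YFP versus GFP, 2.16 (Kif20a) and 1.89 (Stmn1) in YFP versus DP, 2.36 (Gins2) and 1.52 (Mad2l1) in DP versus DN, and 2.38 (Birc5) in YFP versus DN.

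Scaled by total counts, the median over the 39 genes as log2(CPM + 1) was 3.96 in GFP replicate 2, 4.49 in YFP replicate 1, 3.05 in YFP replicate 5 and 4.05 in DN replicate 1, and with DESeq2-style factors it was 4.48 in YFP replicate 5. Thinned to the 289166 counts of YFP replicate 6, DP replicate 5 kept 19 and YFP replicate 5 kept 21 of the 39 genes detected. In YFP replicate 6 a level rests on few reads, 3 counts being worth 8.96 CPM, and 13 of the 39 genes were at or under that.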
